A study of Rattus norvegicus albus with 6 samples.

Results

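Elastic fibres and their crosslinks were followed through 10 genes: elastin (Eln), fibrillin-1 (Fbn1), fibulins 1, 2 and 5 (Fbln1, Fbln2, Fbln5), the microfibril-associated proteins Mfap4 and Mfap5, and the lysyl oxidases Lox, Loxl1 and Loxl2. A gene belonged to the set when the annotation of a probe set gave exactly that symbol. All 10 symbols were found, each on 1 probe set, among 14322 named genes. The cells were primary rat hepatic stellate cells, the liver cells that become matrix-producing myofibroblasts in fibrosis, activated by 7 days on plastic in 10% serum. The RNA of 3 to 4 rats was combined for each array, and each of the 6 groups was 1 array, without a replicate. An adenovirus expressing the Wnt antagonist DKK-1 (Ad.DKK-1) was set against one expressing green fluorescent protein (Ad.GFP). Both were given at a multiplicity of infection of 200 for 24 h in 5% serum, with a further 24 h free of serum. ICG-001 at 10 µM, which blocks the pairing of β-catenin with its coactivator CBP, and FJ9 at 200 µM, which keeps Dishevelled from the Frizzled receptor, were each given for 24 h without serum and set against a vehicle array of their own. The labels name neither the vehicle nor the strain, age or sex of the rats.

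An elastic fibre has a core of elastin on a scaffold of microfibrils. Fibrillins form the microfibrils, and microfibril-associated proteins decorate them. Fibulins such as fibulin-5 bring elastin and the crosslinking enzymes to the scaffold. Lysyl oxidases are copper enzymes that oxidise lysines of elastin and collagen, from which the crosslinks form that make a fibrotic liver stiff. In liver, elastin and fibulin-2 are also known as products of portal fibroblasts.

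Values are log2 expression levels, each read against the same probe set on another array and never against another gene. A difference is the treated array minus its own control on that scale, and 1.5-fold corresponds to a difference of 0.58. With 1 array a side, a single treatment has no test, and a lower level can come from less RNA per cell or from fewer cells that express the gene, which cannot be told apart in bulk RNA. The difference between the vehicle arrays (vehicle for FJ9 minus vehicle for ICG-001) is given for each of the 10 genes as a measure of how far untreated pools differ. Of the 10 genes, 8 passed a filter that left out the lowest 30% of named genes by mean level (up to 6.39), and Fbln2 and Mfap5 did not. The filter kept 10025 genes, which serve as the background. Their median difference was −0.07 under Ad.DKK-1, 0.01 under ICG-001, 0.01 under FJ9 and 0.02 between the vehicle arrays. Dkk1 itself, under the filter, read 6.01 on Ad.DKK-1 and 5.85 on Ad.GFP, and since the labels do not say which DKK-1 sequence the virus carries, its probe set does not check the label. Over all probe sets the array medians differed by −0.17 under ICG-001 and by −0.09 under Ad.DKK-1.

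Most of the elastic fibre genes were lower under Ad.DKK-1 and FJ9, while ICG-001 left most of them within 1.5-fold of its vehicle. Under Ad.DKK-1, 8 of the 10 genes were at least 1.5-fold lower and 0 were higher, with a median difference of −0.97. Of the background genes, 20.8% were lower and 14.5% higher by that much, and of all 14322 named genes 22.6% were lower. With FJ9, 7 of the 10 were lower and 0 higher, with a median of −0.87, against 14.8% of background genes lower and 11.6% higher, and 12.3% of all named genes lower. With ICG-001, 2 were lower and 1 higher, with a median of −0.27, against 13.1% of background genes lower and 12.6% higher. Of all named genes, 16.3% were lower and 10.3% higher with ICG-001, so both counts lay near the shares over all genes. Between the vehicle arrays, 0 of the 10 passed 1.5-fold and the median was −0.19, against 5.2% of background genes lower and 2.44% higher. All 10 differences were below 0 under Ad.DKK-1 and under FJ9, also with each array centred on its median or with quantile normalization run again. Of the 10025 background genes, 5397 were below 0 under Ad.DKK-1 and 4936 with FJ9, and 4820 and 4943 with centring. With ICG-001 7 of 10 were below 0, beside 4941 background genes, and 6 of 10 with centring, beside 3692.

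**Figure D1:**
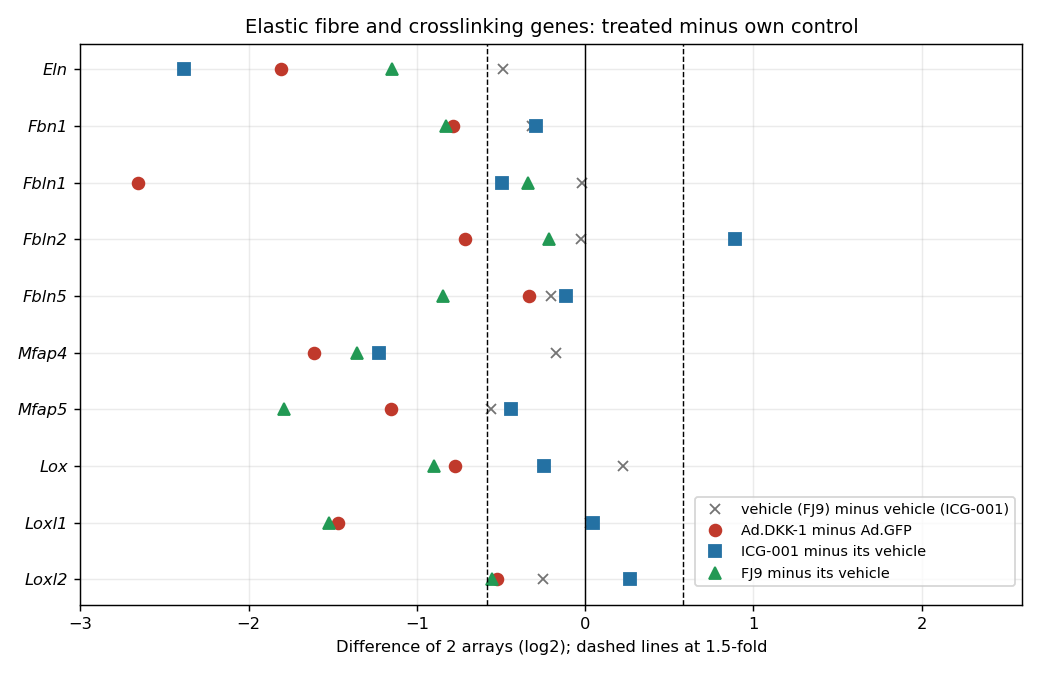
Difference of 2 arrays on the log2 scale for each of the 10 genes, with circles for Ad.DKK-1, squares for ICG-001, triangles for FJ9 and crosses for the vehicle arrays; dashed lines mark 1.5-fold. Circles and triangles lie left of 0 for all 10 genes, squares pass the left line for Eln and Mfap4 and the right line for Fbln2, and no cross passes a line.

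Elastin, the core protein of the fibre, was lower in all 3 treatments. Eln read 12.12 on Ad.GFP and 10.31 on Ad.DKK-1, 11.24 on the vehicle for ICG-001 and 8.85 on ICG-001, and 10.75 on the vehicle for FJ9 and 9.60 on FJ9. The 3 treated arrays lay below all 3 control arrays. Controls were thus 3.51-fold above Ad.DKK-1, 5.22-fold above ICG-001 and 2.22-fold above FJ9, as differences of −1.81, −2.38 and −1.15. Counted from the largest decrease among the 10025 background genes, Eln ranked 18 with ICG-001, 124 under Ad.DKK-1 and 473 with FJ9. The elastin level of the controls was itself uneven. Ad.GFP stood 0.89 above the vehicle for ICG-001 and 1.37 above the vehicle for FJ9, and the vehicle arrays differed by −0.49. The virus control differed from the vehicles in virus, serum and time, which cannot be told apart. Against the other vehicle array, Eln differed by −1.90 with ICG-001 and by −1.64 with FJ9.

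**Figure D2:**
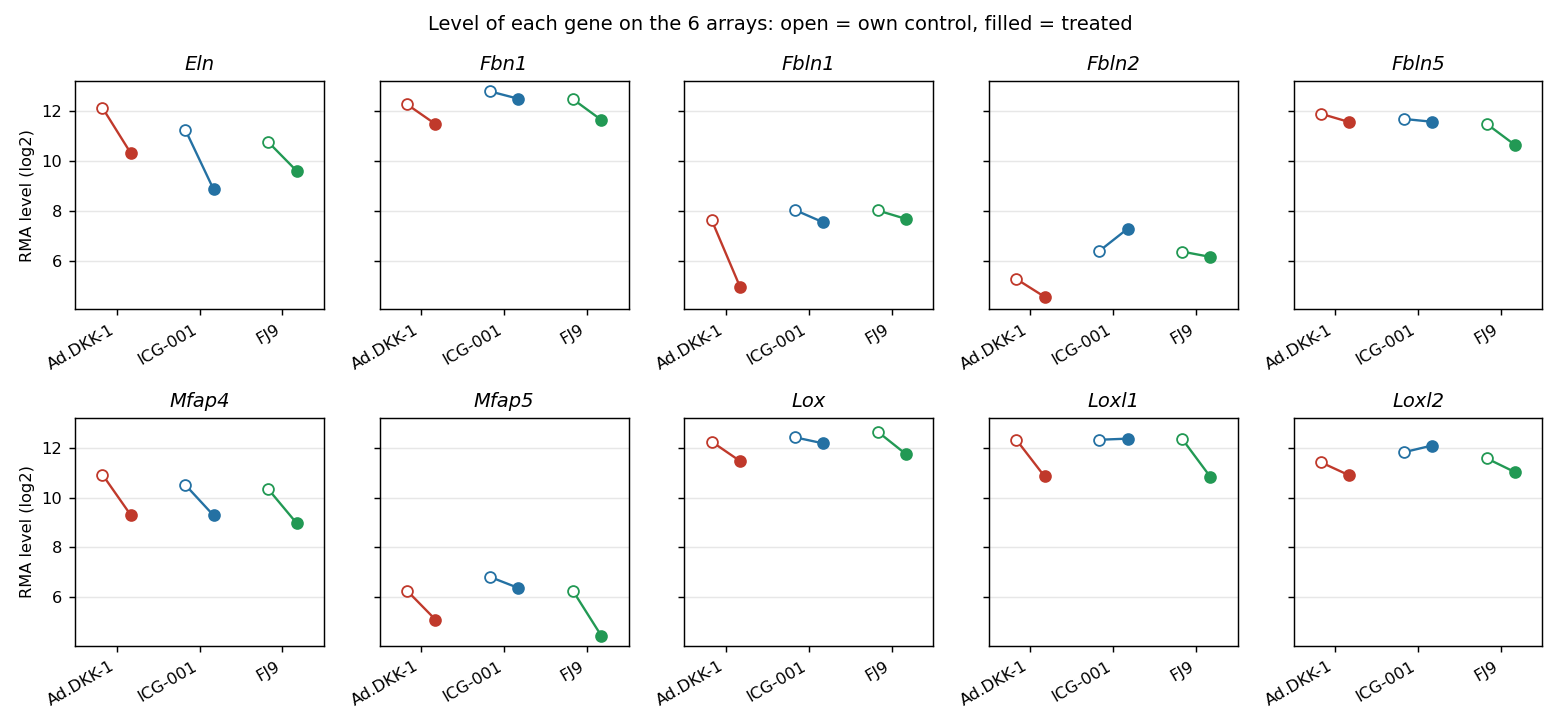
RMA level (log2) of each gene on the 6 arrays, 1 panel a gene, with open circles for the control array and filled circles for the treated array of each pair. Lines fall in all 3 pairs for Eln and Mfap4, fall under Ad.DKK-1 and FJ9 and stay level with ICG-001 for Loxl1, and rise for Fbln2 with ICG-001 from 6.39 to 7.28; levels are not comparable between panels.

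Of the microfibril genes, Mfap4 was lower in every treatment by a similar amount, while Fbn1 and Mfap5 were lower mainly under Ad.DKK-1 and FJ9. Mfap4, whose protein binds elastin and fibrillin at the microfibril, read 10.92 on Ad.GFP and 9.30 on Ad.DKK-1, 10.50 and 9.28 in the ICG-001 pair, and 10.33 and 8.98 in the FJ9 pair. All treated arrays were below all control arrays, and the controls spanned 0.58. The differences were −1.61, −1.22 and −1.35, larger in size than the −0.17 between the vehicle arrays.

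Fbn1, the main structural protein of microfibrils, read 12.26 on Ad.GFP and 11.48 on Ad.DKK-1, 12.78 and 12.49 in the ICG-001 pair, and 12.47 and 11.64 in the FJ9 pair. Treated and control arrays overlapped, because the ICG-001 array stood above 2 of the 3 controls. The differences were −0.78, −0.29 and −0.83, and the vehicle arrays differed by −0.31. Against the vehicle for FJ9, the ICG-001 array differed by 0.02, so its direction turned with the control.

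Mfap5, a fibrillin-binding glycoprotein, read 6.26 on Ad.GFP and 5.11 on Ad.DKK-1, 6.82 and 6.38 in the ICG-001 pair, and 6.26 and 4.47 in the FJ9 pair. Its mean was under the level filter, and the FJ9 value lay close to the lowest value of the arrays (4.00). The differences were −1.15, −0.44 and −1.79, beside −0.56 between the vehicle arrays. Against the other vehicle array they became 0.12 with ICG-001 and −2.35 with FJ9.

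The 3 fibulins did not move together. Fbln1, a fibulin of the elastic fibre core and of basement membranes, was lower chiefly under Ad.DKK-1, where it read 4.96 against 7.62 on Ad.GFP. The other arrays lay close to each other, at 7.54 on ICG-001 and 8.03 on its vehicle, and 7.67 on FJ9 and 8.01 on its vehicle. The differences were −2.66, −0.49 and −0.34, and the vehicle arrays differed by −0.02. The Ad.DKK-1 reading lay under the level filter and near the lowest value of the arrays, so the size of this decrease is uncertain.

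Fbln2, which binds fibrillin and tropoelastin, was the only one of the 10 past 1.5-fold in the higher direction. It read 5.26 on Ad.GFP and 4.55 on Ad.DKK-1, 6.39 on the vehicle for ICG-001 and 7.28 on ICG-001, and 6.36 and 6.15 in the FJ9 pair. The ICG-001 array was the highest of all 6, and both virus arrays were the lowest. The differences were −0.71, 0.89 and −0.21 with −0.02 between the vehicle arrays, and the ICG-001 difference was 0.91 against the other vehicle. The Ad.DKK-1 difference was −0.58 after quantile normalization, just inside 1.5-fold, and the gene was under the level filter.

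Fbln5, which tethers elastin to cells and to lysyl oxidase-like 1, was lower with FJ9. It read 11.48 on the vehicle for FJ9 and 10.63 on FJ9, against 11.89 on Ad.GFP and 11.55 on Ad.DKK-1 and 11.68 and 11.57 in the ICG-001 pair. The FJ9 array was the lowest of the 6, and the other 5 lay between 11.48 and 11.89. The differences were −0.33, −0.11 and −0.84, with −0.20 between the vehicle arrays. With centring the ICG-001 difference turned to 0.06, and with the other vehicle to 0.09.

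Of the crosslinking enzymes, Loxl1 and Lox were lower under Ad.DKK-1 and FJ9 but not past 1.5-fold with ICG-001, and Loxl2 stayed within 1.5-fold in all 3 treatments. Loxl1, the lysyl oxidase most tied to elastin, read 12.31 on Ad.GFP and 10.85 on Ad.DKK-1, and 12.34 on the vehicle for FJ9 and 10.82 on FJ9. With ICG-001 it read 12.36 against 12.32. Its 3 controls spanned 0.03, the narrowest span of the 10 genes, and the vehicle arrays differed by 0.03. The differences were −1.47, 0.04 and −1.52, that is 2.76-fold and 2.87-fold lower under Ad.DKK-1 and FJ9.

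Lox, the founding member of the family, read 12.24 on Ad.GFP and 11.46 on Ad.DKK-1, 12.42 and 12.17 in the ICG-001 pair, and 12.64 and 11.74 in the FJ9 pair. The treated arrays lay below all controls, although the gap between 12.17 on ICG-001 and 12.24 on Ad.GFP was small. The differences were −0.77, −0.24 and −0.90, and the vehicle arrays differed by 0.23 in the other direction. Against the other vehicle the compounds gave −0.47 and −0.67.

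Loxl2, which crosslinks collagen IV as well as fibrillar matrix, read 11.41 on Ad.GFP and 10.89 on Ad.DKK-1, 11.82 and 12.09 in the ICG-001 pair, and 11.57 and 11.02 in the FJ9 pair. The ICG-001 array was the highest of the 6. The differences were −0.52, 0.27 and −0.55, with −0.25 between the vehicle arrays. Under Ad.DKK-1 and FJ9 they fell short of 1.5-fold, and the nearest genes past it were Fbln2 at −0.71 and Fbn1 at −0.83.

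**Figure D3:**
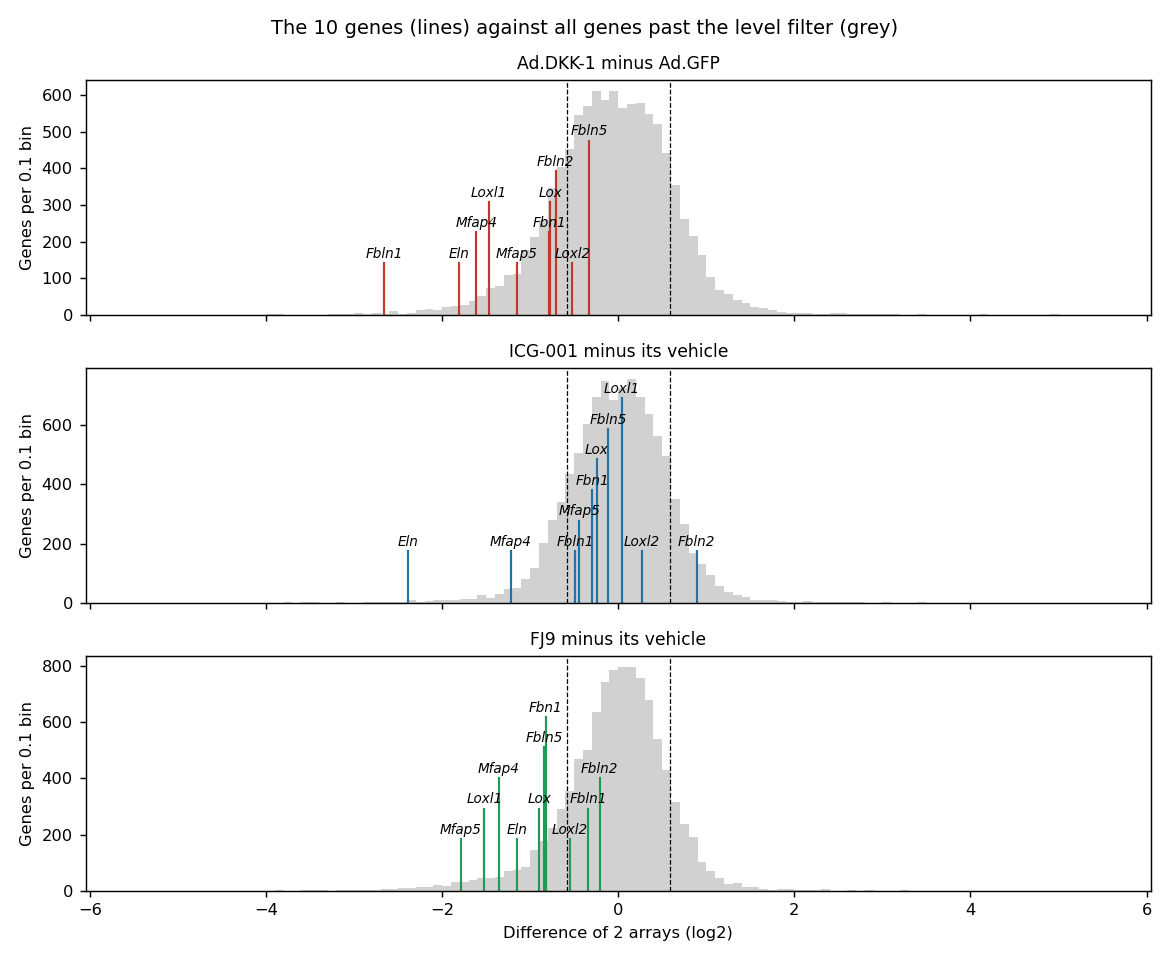
Histograms of the difference of 2 arrays (log2) over the 10025 background genes in bins of 0.1, 1 panel a treatment, with a line for each of the 10 genes; line heights serve only to separate the labels, and Fbln2 and Mfap5 are shown although under the level filter. Left of the lower dashed line stand 8 genes under Ad.DKK-1, 7 with FJ9 and 2 with ICG-001 (Eln and Mfap4), and Fbln2 stands right of the upper one with ICG-001.

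A limma model of treated against control covered all 6 arrays, with a block term for each treatment and its control. It asks whether the mean over 3 different treatments departs from 0 and says nothing of a treatment alone. Of the 8 genes past the filter, 4 were called lower and 0 higher (Benjamini-Hochberg adjusted p under 0.05 over 10025 genes), against 5.02% of background genes lower and 3.56% higher. Eln fell by a mean of 1.78 (SE 0.23, limma adjusted p = 0.000331) and Mfap4 by 1.40 (SE 0.19, limma adjusted p = 0.000577), each lower in 3 of 3 pairs. Both kept their calls under all 7 alternative fits, with adjusted p up to 0.0149 for Eln and 0.0079 for Mfap4. Loxl1 was called at −0.98 (SE 0.26, limma adjusted p = 0.0307), carried by 2 of 3 pairs. It was called in 3 of the 7 alternatives, with −0.74 and an adjusted p of 0.0882 without the Ad.DKK-1 pair, and −1.49 and 0.00231 without the ICG-001 pair. Fbn1 was called at −0.63 (SE 0.19, limma adjusted p = 0.0487) and in 0 of the 7 alternatives, where its adjusted p ran from 0.0516 to 0.168, between 0.0600 and 0.161 with 1 pair left out.

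Lox, at −0.64, had nearly the same mean and error as Fbn1 (SE 0.19, limma adjusted p = 0.0521) and did not pass, nor under any of the 7 alternatives. Fbln1 did not pass at −1.16 (SE 0.38, limma adjusted p = 0.0712), with its difference resting on Ad.DKK-1. Without the FJ9 pair it was −1.58 with a limma adjusted p of 0.000455, and without the Ad.DKK-1 pair −0.42 with 0.464. The fit without the FJ9 pair took its variances from all genes together, with infinite prior degrees of freedom. Its p-value for Fbln1 thus ignored how far apart the remaining pairs lay, at −2.66 under Ad.DKK-1 and −0.49 with ICG-001. Fbln5 at −0.43 (SE 0.19, limma adjusted p = 0.187) and Loxl2 at −0.27 (SE 0.20, limma adjusted p = 0.431) did not pass either. Without the level filter Mfap5 could be tested and was called at −1.13 (SE 0.31, limma adjusted p = 0.0348 over 14322 genes), in which fit Fbn1 was not. All 3 treated arrays lay below all 3 controls for Eln, Mfap4 and Lox, that is 3 of 10 genes, as they did for 13.2% of background genes and 11.9% of all named genes.

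Set side by side, Ad.DKK-1 and FJ9 gave close values for the crosslinking enzymes and fibrillin. Ad.DKK-1 minus FJ9 came to 0.12 for Lox, 0.06 for Loxl1, 0.03 for Loxl2 and 0.04 for Fbn1. The rest of the 10 lay further apart, at −2.32 for Fbln1, −0.66 for Eln, −0.50 for Fbln2, −0.26 for Mfap4, 0.51 for Fbln5 and 0.64 for Mfap5. For Lox, Loxl1, Loxl2 and Fbn1, FJ9 minus ICG-001 came to between −0.53 for Fbn1 and −1.57 for Loxl1. None of these departures can be tested with 1 array a group. Elastin ran the other way, with its largest decrease under ICG-001, 1.23 beyond that of FJ9. That gap includes the −0.49 between their vehicle arrays, and the levels on the compound arrays themselves lay 0.75 apart. Of the 10 genes, 6 were at least 1.5-fold lower under both Ad.DKK-1 and FJ9 (Eln, Fbn1, Mfap4, Mfap5, Lox and Loxl1), against 7.2% of background genes. Mfap5 among these lay under the level filter, which all background genes passed. Only Eln and Mfap4 of the 10 were past 1.5-fold in all 3 treatments, a pattern that 3.14% of background genes showed. Fbln1 and Fbln2 passed it in the lower direction under Ad.DKK-1 alone, and Fbln5 with FJ9 alone.

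Other genes of the elastic fibre and microfibril gave a similar picture. Of 25 listed, 13 were named in the annotation used here, and 12 of these passed the level filter. For these and the lists that follow, the background shares are those given above, 20.8% lower and 14.5% higher under Ad.DKK-1, 13.1% and 12.6% with ICG-001, 14.8% and 11.6% with FJ9, and 5.02% lower and 3.56% higher for limma. Under Ad.DKK-1, 10 of the 13 were at least 1.5-fold lower and 0 higher (median −0.81). With FJ9, 6 were lower and 0 higher (median −0.58), and with ICG-001 3 were lower and 3 higher (median −0.27). Between the vehicle arrays 0 were lower and 0 higher. Centring turned the ICG-001 counts to 1 lower and 4 higher. Limma called 4 of them lower over the 3 pairs and 0 higher.

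Emilin1, an elastin-binding glycoprotein at the edge of the fibre, read 10.79 on Ad.GFP and 9.69 on Ad.DKK-1, 10.16 and 8.52 in the ICG-001 pair, and 10.37 and 8.14 in the FJ9 pair, with treated arrays below all controls. Its differences were −1.10, −1.63 and −2.23, with 0.22 between the vehicle arrays, and its mean of −1.65 was called (SE 0.23, limma adjusted p = 0.000572). Efemp2, which encodes fibulin-4, needed for lysyl oxidase to act on elastin, differed by −0.87, −0.68 and −0.90 and was called (limma adjusted p = 0.0128). Adamtsl4, a microfibril-binding protein, differed by −1.05, −0.74 and −1.27 and was called (limma adjusted p = 0.00637). Ltbp2, a fibrillin-binding relative of the latent TGF-β binding proteins, differed by −0.94, −0.29 and −0.88 (limma adjusted p = 0.0374), and its call held in 2 of 7 alternatives.

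Against these, 2 genes read several-fold higher on ICG-001 than on its vehicle. Efemp1, which encodes fibulin-3, read 8.70 on ICG-001, while the other 5 arrays lay between 5.03 and 5.85. Its difference was 2.99 with ICG-001, −0.81 under Ad.DKK-1 and −0.20 with FJ9, and its low readings, under the level filter, leave the size uncertain. Adamtsl5, another microfibril-binding protein, read 9.90 on ICG-001 against 7.66 on its vehicle, a difference of 2.24, and −0.61 and 0.45 under Ad.DKK-1 and FJ9. Ltbp4, which fosters elastin assembly through fibulin-5, differed by 0.75 with ICG-001 against −0.32 under Ad.DKK-1 and −0.64 with FJ9, and by −0.40 between the vehicle arrays. Glb1, whose splice form is the elastin binding protein, differed by −1.17 under Ad.DKK-1 and by 0.01 with FJ9.

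**Figure D4:**
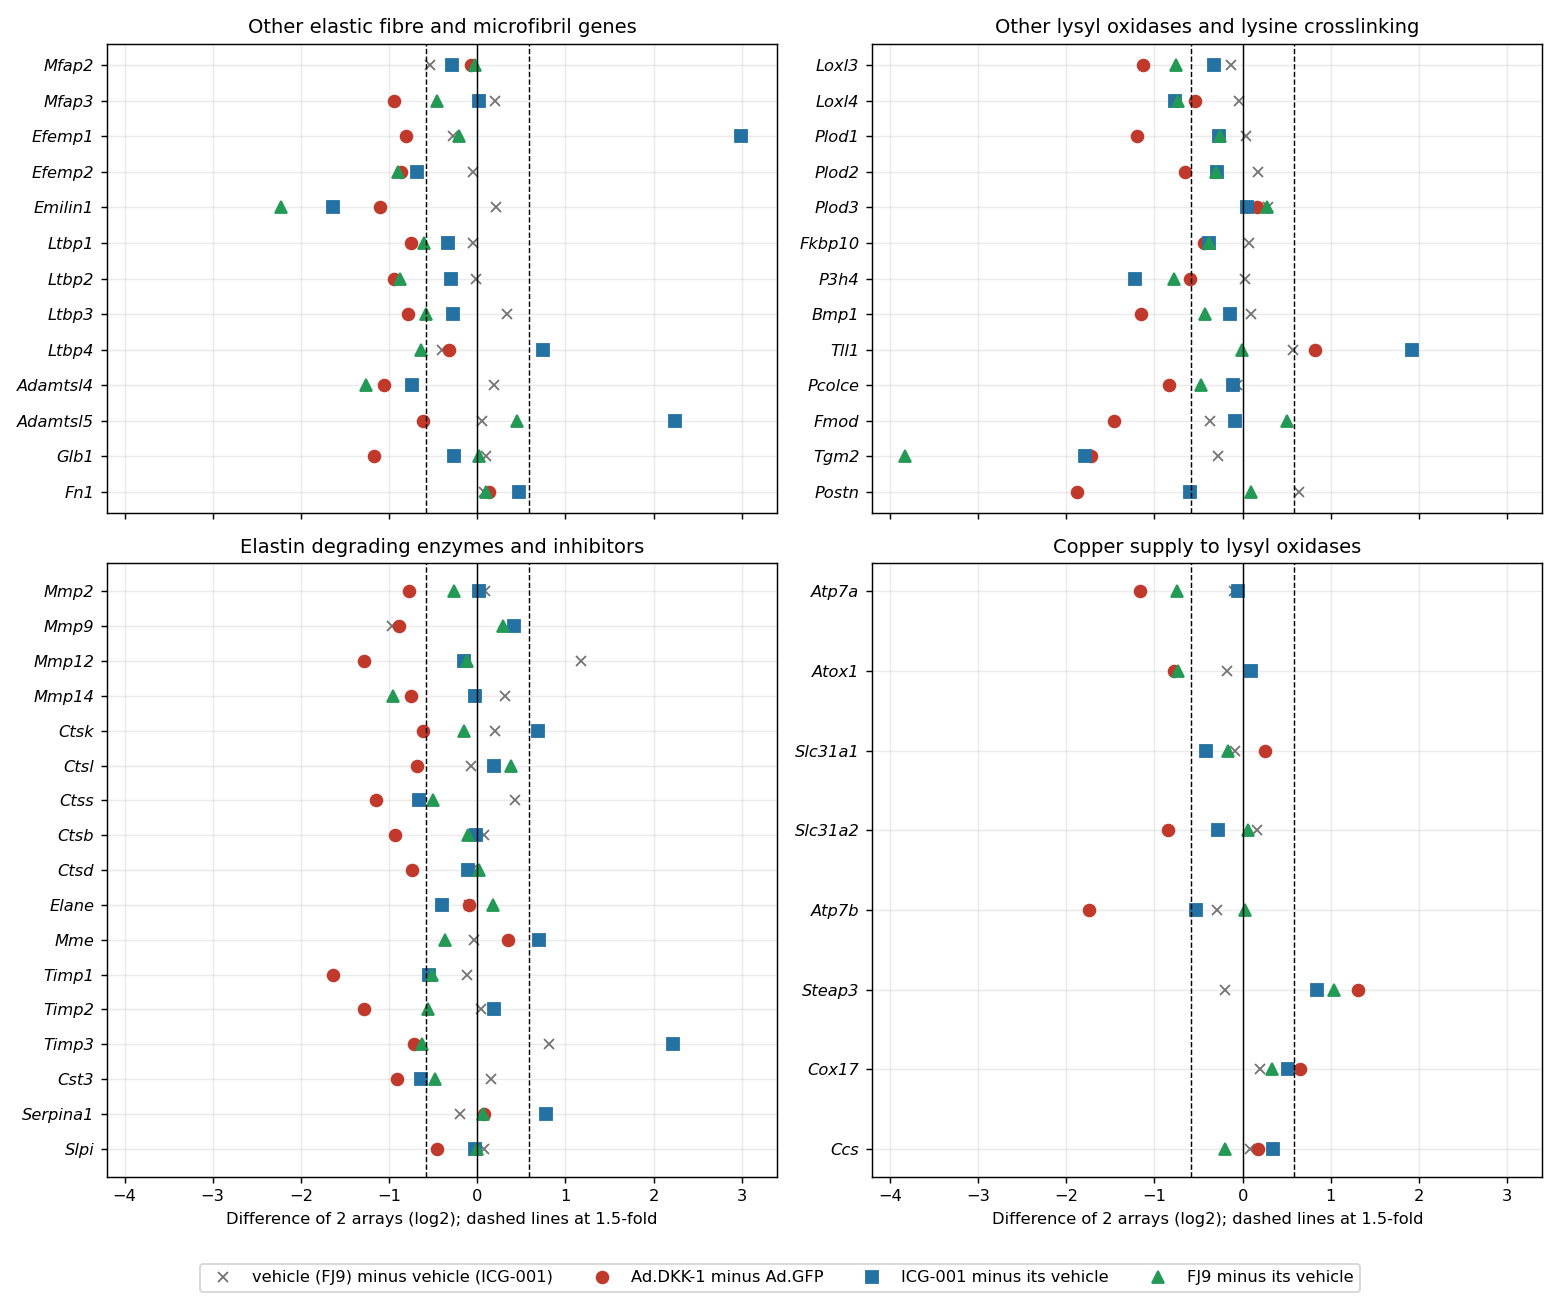
Difference of 2 arrays (log2) for the listed genes outside the 10, in 4 panels by role, with circles for Ad.DKK-1, squares for ICG-001, triangles for FJ9, crosses for the vehicle arrays and dashed lines at 1.5-fold. Emilin1, Efemp2, Adamtsl4, Tgm2 and P3h4 lie left of the line in all 3 treatments. The ICG-001 squares of Efemp1, Adamtsl5, Timp3 and Tll1 lie far right, and Steap3 lies right of the line in all 3.

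Among other enzymes and partners of lysine crosslinking, 13 of 14 listed genes were named and 12 passed the filter. Of the 13, 9 were lower under Ad.DKK-1 and 1 higher (median −0.84), 4 were lower with ICG-001 and 1 higher (median −0.29), and 4 were lower with FJ9 and 0 higher (median −0.39). Limma called 3 lower and 0 higher. Tgm2, a transglutaminase that crosslinks matrix through glutamine rather than through oxidised lysine, differed by −1.71, −1.79 and −3.83, with −0.28 between the vehicle arrays, and was called (limma adjusted p = 0.00044). It read 6.51 on FJ9 against 10.34 on its vehicle, a 14.2-fold difference. P3h4, a partner of collagen lysyl hydroxylation, differed by −0.59, −1.22 and −0.78 (limma adjusted p = 0.0226), and Loxl3, a further lysyl oxidase, by −1.13, −0.32 and −0.75 (limma adjusted p = 0.0389). Their calls held in 4 and 2 of 7 alternatives.

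Loxl4 differed by −0.54, −0.77 and −0.73 and did not pass the test (limma adjusted p = 0.115). Of the lysyl hydroxylases, Plod1 differed by −1.19, −0.27 and −0.25 and Plod2 by −0.66, −0.29 and −0.30. Plod3 stayed within 1.5-fold at 0.16, 0.05 and 0.27. Tll1, a protease that processes procollagens and lysyl oxidase precursors, was higher under Ad.DKK-1 (0.83) and ICG-001 (1.92), beside 0.58 between the vehicle arrays. Bmp1, a protease on the same list, went the other way, at −1.15, −0.15 and −0.43, with 0.09 between the vehicle arrays. Its treated arrays lay below all controls, and it did not pass the test (limma adjusted p = 0.114). Postn, a matricellular protein that promotes lysyl oxidase maturation, differed by −1.87 under Ad.DKK-1, −0.60 with ICG-001 and 0.10 with FJ9, beside 0.64 between the vehicle arrays.

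Genes of copper handling, not all of which serve the lysyl oxidases, showed no common direction as a list. Of 8 measured, 4 were lower and 2 higher (Steap3 and Cox17) under Ad.DKK-1. With ICG-001 0 were lower and 1 higher, and with FJ9 2 were lower and 1 higher. Atp7a, the pump that loads copper onto secreted enzymes, differed by −1.16, −0.05 and −0.74 and did not pass the test (limma adjusted p = 0.103), and its copper chaperone Atox1 by −0.78, 0.10 and −0.73. Steap3, a metalloreductase, was higher in all 3 pairs, by 1.31, 0.84 and 1.04, with −0.20 between the vehicle arrays (limma adjusted p = 0.0225), and was called in 5 of 7 alternatives.

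Of 17 enzymes that degrade elastin and their inhibitors, 13 were lower under Ad.DKK-1 and 0 higher (median −0.75), 2 lower and 4 higher with ICG-001 (median −0.02), and 2 lower and 0 higher with FJ9 (median −0.15). Centring took ICG-001 to 0 lower and 4 higher, with a median of 0.16. Mmp12, macrophage elastase, differed by −1.28 under Ad.DKK-1, and by 1.17 between the vehicle arrays. Limma called 2 of the 17, both inhibitors. Timp1 differed by −1.64, −0.55 and −0.51 (limma adjusted p = 0.0225), with a mean of −0.90 and of −0.53 without the Ad.DKK-1 pair, where its adjusted p was 0.143. Cst3, cystatin C, differed by −0.91, −0.64 and −0.48 (limma adjusted p = 0.0342). Their calls held in 4 and 2 of 7 alternatives. Timp3, which did not pass, differed by −0.72, 2.22 and −0.63 with 0.82 between the vehicle arrays. The fibrillar collagens, the other substrate of the lysyl oxidases, were lower by 1.5-fold in 2 of 7 under Ad.DKK-1, 1 of 7 with ICG-001 and 1 of 7 with FJ9, near the background shares of 13.1% for ICG-001 and 14.8% for FJ9. With ICG-001 1 was higher (Col11a1, 0.78, beside −0.53 between the vehicle arrays), and centring took the lower count to 0. Limma called Col5a1 alone (−0.79, adjusted p = 0.0279, and in 3 of 7 alternatives).

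The genes with 3 differences nearest to those of Eln, by Euclidean distance on the log2 scale over 10017 background genes outside the 10, were Ptn at 0.45 (−2.13, −2.69 and −1.11), Tm7sf2 at 0.52 (−1.99, −2.79 and −1.43) and Igsf10 at 0.53 (−2.03, −1.94 and −0.97), in the order Ad.DKK-1, ICG-001 and FJ9. Ptn encodes the growth factor pleiotrophin and Tm7sf2 a sterol reductase. Between the vehicle arrays, Tm7sf2 and Igsf10 themselves differed by −1.53 and −2.17, and Ptn by −0.39. Those nearest to Lox were Lxn, Fos and Ctbs, each at 0.06, with −0.77, −0.30 and −0.91 for Lxn.

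The stellate cell label was checked against marker genes. Of 13 stellate and myofibroblast markers, all but Acta2 were named. These 12 all passed the level filter, with Vim between 12.75 and 13.09 and Col1a1 between 12.57 and 12.98 on every array. Their summed linear level, in log2, ran from 15.22 to 15.43 on treated arrays and from 15.54 to 15.68 on controls. Of the 12, 7 were at least 1.5-fold lower under Ad.DKK-1, 3 with ICG-001 and 6 with FJ9, and 0 were higher. Between the vehicle arrays 2 were lower. Lrat, the retinol-storing enzyme, differed by −1.31, −1.42 and −3.34, with −0.95 between the vehicle arrays, and Pdgfra by −1.29, −2.33 and −1.29. Rgs5 differed by −3.12, −2.83 and −1.17, with 0.21 between the vehicle arrays. Vim (0.02, 0.05 and 0.04) and Pdgfrb (−0.65, −0.07 and −0.08) differed less, and the myogenic filament gene Des read 0.31, 0.33 and −0.88.

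For portal fibroblasts, beside Eln and Fbln2, which that list shares with the 10, 4 of 8 markers were named. Of these 1 passed the filter (Entpd2, 6.01 to 6.94), while Thy1 (4.67 to 6.44), Cd34 and Dpt were under it. The summed level of these 4 ran from 7.33 to 8.20 on treated arrays and from 7.85 to 8.25 on controls. Of 8 Kupffer cell markers 2 passed the filter (Cd68 and Csf1r), and the sum was lower on treated arrays (8.91 to 9.32) than on controls (9.67 to 9.94). The 3 mesothelial markers named of 4, all past the filter (Msln, Upk1b and Wt1, of which stellate cells also express Wt1) likewise summed to 8.48 to 9.10 on treated arrays and 9.69 to 9.94 on controls. Wt1 was the highest of the 3 on every array and weighed most in that sum, with differences of −1.77, −1.44 and −0.91. Upk1b differed by −0.32, −0.90 and −0.55. Msln, at −0.12, −0.58 and −0.09, stayed within 1.5-fold, and its treated and control arrays overlapped. The Kupffer cell and mesothelial sums moved in the direction of Eln, Mfap4 and Lox, and their part in those results was not tested.

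The 6 smooth muscle genes summed to between 10.46 and 12.20 on treated arrays and 11.47 to 12.02 on controls, and all 6 passed the filter. With FJ9 all 6 were at least 1.5-fold lower, against 14.8% of background genes, and between the vehicle arrays 1 was lower and 2 were higher. Sums for 7 of 8 hepatocyte, 3 of 7 endothelial and 3 of 4 cholangiocyte genes overlapped between treated and control arrays, at 8.48 to 9.11 against 8.52 to 9.30, 7.39 to 8.56 against 7.73 to 8.44, and 7.92 to 8.61 against 8.18 to 8.59.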

How the data were processed

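RNA of cultured rat stellate cells was measured on 6 Affymetrix arrays, 1 per group, grouped by their titles. The deposited values are log2 levels per probe set, which the authors computed by RMA. Per the submitters' processing notes this was done in Affymetrix Expression Console, whose version was not given in the sources used here. RMA subtracts background, equalises array distributions and summarises probes, which compresses low and very high signals. Array medians still differed, and values were used as deposited. The number of arrays limits the precision.

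The platform annotation names 15092 of 26988 probe sets with 1 symbol and 323 with several, and 11573 are unlisted and unnamed here. Entrez identifiers of all 10 genes matched RefSeq (GRCr8), used for names only. The probe set with the highest mean stood for a gene. Coordinates are left out, since no source used here names the array's build. Differences were counted past 1.5-fold. Limma 3.58.1 (R 4.3.3, lmFit and eBayes with trend, two-sided, pair as block, 2 residual degrees of freedom) was tested on simulated data first. It tests the mean of 3 different treatments. In the main fit, p-values measure the spread of the 3 treated minus control differences. That spread is drawn toward the spread of other genes, with 12.37 prior against 2 residual degrees of freedom. The p-values do not measure how far replicate pools of 1 treatment would differ. Alternatives were median centring, repeated quantile normalization, the mean of probe sets, the level filter, a 2-fold limit, the other vehicle, and limma without block, trend or filter or with a pair left out.

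Named were the 10 genes, up to 4 per list and comparison with the largest differences, genes past 1.5-fold in all 3 treatments, and the 3 genes nearest to Eln and to Lox. Some others (Ltbp4, Loxl3, Loxl4, Plod2, Plod3, Atox1, Vim, Thy1 and the markers) were added after their values were seen. The rule was not followed in full. Values of some genes that it reached are not given, among them Atp7b, Slc31a2, Timp2, Ctss and Mmp14. The 10 genes and the lists were chosen with earlier results of these data known.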

Additional observations from a re-analysis of the deposited data

How the results depend on the processing

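For the 10 genes, no difference past 1.5-fold changed sign under any alternative run. Of 83 alternative values for counts and medians, 70 stayed within 1.5 times the count or within 0.34 of the median, the SD over genes of the vehicle difference. With a 2-fold limit, 5 genes were lower under Ad.DKK-1, 4 with FJ9, and 0 higher with ICG-001. Leaving out the genes under the filter also gave 0 higher with ICG-001. Over the 3 pairs limma called 503 genes lower and 357 higher, 255 and 167 with no replicate block, 247 lower with arrays centred, and 221 higher without a trend. With 1 pair left out it called 405 to 453 lower and 165 to 269 higher, 165 without the ICG-001 pair. Limma called 4 of the 10 genes, and 2 with no block, without a trend or with arrays centred, and 2 to 4 with 1 pair left out. The fewest were without the Ad.DKK-1 pair. The fit without the FJ9 pair ignored each gene's own spread, so its calls rest on variances taken from all genes. Without the level filter it called 4, with Mfap5 in place of Fbn1. Centring raised the share of higher calls with ICG-001 from 49.1% to 74.6%, and under Ad.DKK-1 from 41.0% to 52.7%. Of the 11 listed genes outside the 10 that limma called, 3 were called under every alternative (Adamtsl4, Emilin1 and Tgm2). No paired analysis beyond the treatment and control pairs was possible because the labels number no replicates. Detection calls were not used here, so whether Fbln2 and Mfap5 stand above background was not assessed.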
